A study of Mus musculus with 4 samples.

Results

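The nuclei described here are vein-like endothelial cells (ECs) of the mouse right ventricle (RV), picked out by transcripts of Vwf, the gene for von Willebrand factor, with no endocardial or lymphatic transcript. A nucleus was a member when it held at least 2 unique molecular identifiers (UMIs, each 1 counted RNA molecule) of Vwf, at least 2 UMIs over the EC genes Ptprb, Pecam1, Cdh5 and Flt1, none over the endocardial genes Npr3, Tmem108 and Nrg1 or the lymphatic genes Mmrn1 and Reln, and at most 1 over the arterial genes Gja5, Gja4, Sox17, Hey1 and Dll4. Ryr2, a cardiomyocyte (CM) gene, had to be under 1% of its UMIs, and the nucleus had to have at least 200 genes and under 10% mitochondrial UMIs. This gave 385 members, 91 in sham 1, 105 in sham 2, 103 in RVVO 1 and 86 in RVVO 2, out of 53090 barcodes, 48428 nuclei that passed the quality limits and 19381 EC nuclei.

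All libraries came from wild-type C57/BL6J pups whose RV was taken on postnatal day 21 (P21) and frozen, and from which nuclei were isolated for droplet-based 3′ RNA sequencing. The RVVO pups had right ventricular volume overload, made on P7 by a puncture from the abdominal aorta into the inferior vena cava, and the sham pups went through the same surgery without the puncture. There were 2 libraries in each group, male or female pups had been randomized at surgery, and neither the labels nor the methods say whether a library held 1 animal or a pool, so p-values measure only the spread between these libraries. The methods state that mice received cyclosporine A or saline under the skin from the day after surgery, and neither they nor the labels say which agent the pups of these 4 libraries received. The libraries held 55516713, 51010039, 64739206 and 63422784 UMIs, and here and throughout 4 values in a row are those of sham 1, sham 2, RVVO 1 and RVVO 2.

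Veins and venules drain the capillaries and are the main site where leukocytes leave the blood. Their ECs make von Willebrand factor, which carries platelets to sites of injury and is stored with P-selectin in Weibel-Palade bodies, rod-shaped granules that fuse with the cell surface on stimulation. Vein identity depends on Nr2f2 (COUP-TFII), a nuclear receptor that holds back Notch signalling, and on the receptor Ephb4, whose partner Efnb2 marks arteries. In the heart Vwf is also made by the endocardium, the lining of the chambers, so Vwf alone does not tell the 2 apart.

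The members had a median of 3031, 2261, 3282 and 3281.5 UMIs and of 1680, 1358, 1798 and 1836.5 genes per nucleus, with 1.20%, 1.31%, 0.942% and 0.925% of UMIs from mitochondrial genes. Summed over nuclei, they held 441226, 302415, 552236 and 397984 UMIs. Levels are given in CPM, the UMIs of a gene per 1000000 UMIs of that class of nuclei in that library, and a gene with 0 UMIs could have a level of up to 6.80, 9.92, 5.43 and 7.54 CPM, or 1.77 CPM over all members. No member shared its barcode with a member of another library. Among all barcodes 28 to 70 were shared by a pair of libraries, 0.314% to 0.540% of the smaller one.

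Because members were chosen by Vwf, its level is a description. It was 786, 1121, 806 and 709 CPM in the vein-like nuclei, with 171 members at 2 UMIs, 79 at 3 and 135 at 4 or more, up to 16. The endocardial-like nuclei (at least 2 UMIs of the endocardial genes, n = 2071) held about as much, 839, 1037, 916 and 876 CPM, and the arterial-like nuclei (n = 1346) held 26.9, 49.8, 41.3 and 59.7 CPM. The remaining ECs of the same limits were the 12208 with no Vwf UMI, called Vwf-0 ECs, and 926 with exactly 1, which lay just outside the rule. In the files Vwf is ENSMUSG00000001930, on chromosome 6 from 125546774 to 125686679 (GRCm38, as for all positions), Nr2f2 is ENSMUSG00000030551, on chromosome 7 from 70351944 to 70366735, and Ephb4 is ENSMUSG00000029710, on chromosome 5 from 137350109 to 137378669.

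Levels around the threshold were taken over the 4 libraries pooled, and the size of the step differed by gene. The members with exactly 2 Vwf UMIs had 121 CPM of Nr2f2 and 11.1 CPM of Selp (P-selectin), the 926 nuclei with 1 Vwf UMI had 106 and 4.34, and the 214 members with 3 or more had 178 and 23.5. Efnb2 went the other way, from 138 CPM at 1 UMI to 90.8 at 2 and 62.9 at 3 or more, as did the capillary gene Btnl9, from 182 to 95.6 and 52.5. Ephb4 was at 151 CPM at 1 UMI, 185 at 2 and 162 at 3 or more. Vegfc rose at the threshold and not beyond it, from 140 CPM at 1 UMI to 288 at 2 and 264 at 3 or more. The Selp level at 2 Vwf UMIs rests on 7 UMIs.

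The first comparison set the vein-like nuclei against the Vwf-0 ECs of the same libraries, to find which genes accompanied Vwf among ECs without endocardial or lymphatic UMIs and with at most 1 arterial UMI, which 73 of the 385 members held. Counts were summed by class and library and tested with the quasi-likelihood test of edgeR, with the library as a block and with Benjamini-Hochberg adjustment over all genes. A gene is called higher or lower only at an adjusted p under 0.05, and genes of the rule were not tested. Of 13474 genes, 488 passed (3.62%), 286 higher (2.12%) and 202 lower (1.50%) in vein-like nuclei. The median log2 fold change of all genes was -0.01. Without sham 2 the count was 191 and without RVVO 2 it was 303.

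Of 18 genes on a list of vein markers, 9 were higher and 0 lower, with a median log2 fold change of 0.51. Nr2f2 was at 141, 169, 174 and 143 CPM in vein-like nuclei and 69.5, 74.8, 86.6 and 61.8 CPM in Vwf-0 ECs. Every library of the first class was above every library of the second, and the log2 fold change was 1.09 ± 0.13 (SE, n = 4 libraries of each class, edgeR adjusted p = 7.71e-06). Selp, the leukocyte receptor of Weibel-Palade bodies, on chromosome 1 from 164115264 to 164150026, was at 4.53, 39.7, 12.7 and 27.6 CPM against 0.512, 1.53, 0.757 and 2.30, a log2 fold change of 3.96 ± 0.52 (adjusted p = 2.81e-05), and its value in sham 1 rests on 2 UMIs. The groups did not overlap, but the spread of Selp over the vein-like libraries was wide. Fmo2, a flavin monooxygenase, was at 147, 278, 321 and 126 CPM against 46.3, 84.6, 127 and 84.8 (log2 fold change 1.33 ± 0.15), where RVVO 2 of the vein-like nuclei and RVVO 1 of the Vwf-0 ECs were level.

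Emcn (endomucin, a surface mucin of veins and capillaries, log2 fold change 0.69), Fmo1 (0.55), Vcam1 (a leukocyte adhesion molecule, 1.11), Ctsh (a lysosomal protease, 1.0) and Dab2 (an endocytic adaptor, 0.47) were also higher. Plvap, which builds the diaphragms of EC vesicles and openings, was higher by 2.38 ± 0.51 on the log2 scale at a low level, 13.6, 9.92, 9.05 and 15.1 CPM against 2.31, 2.14, 1.67 and 2.94. The call of Vcam1 was lost without RVVO 2, those of Plvap and Ctsh without sham 2 or RVVO 2, and that of Dab2 without sham 2, RVVO 1 or RVVO 2. With nuclei thinned to 1000 UMIs Plvap and Dab2 lost theirs (edgeR adjusted p = 0.0855 and 0.654), and among members with at least 3 Vwf UMIs Ctsh and Dab2 did (0.0607 and 0.0675). Without nuclei holding UMIs of other lineages Fmo1, Emcn, Ctsh and Dab2 lost theirs (edgeR adjusted p = 0.882, 0.0762, 0.213 and 0.932). Their log2 fold changes were then 0.18, 0.72, 2.28 and 0.14. Other lineages here means fibroblast, mural (pericyte and smooth muscle), macrophage, glial, epicardial, lymphoid and platelet genes, and CM genes were not counted. Without the library block the calls of Fmo1, Fmo2, Emcn, Vcam1, Ctsh and Dab2 were lost (edgeR adjusted p = 0.200, 0.0938, 0.106, 0.237, 0.236 and 0.253).

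Ephb4, although a marker of the class by its label, did not pass. It was at 156, 192, 172 and 168 CPM in vein-like nuclei and 138, 169, 113 and 132 CPM in Vwf-0 ECs, with overlapping groups and a log2 fold change of 0.33 ± 0.12 (edgeR adjusted p = 0.195). With every nucleus thinned to 1000 UMIs the log2 fold change was 0.59 and the adjusted p 0.0391. Of the 3 markers in the name of the class, Vwf was thus the rule itself, Nr2f2 was higher and Ephb4 did not pass. The other 8 vein-list genes without a call included Nrp2 (-0.12), Aplnr (-0.51), Mgp (0.39) and Ackr1, the venule chemokine receptor (2.62). Among members with at least 3 Vwf UMIs Mgp passed (log2 fold change 0.52, edgeR adjusted p = 0.0161). It also passed without nuclei holding UMIs of other lineages (0.96, edgeR adjusted p = 0.0316).

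**Figure D1:**
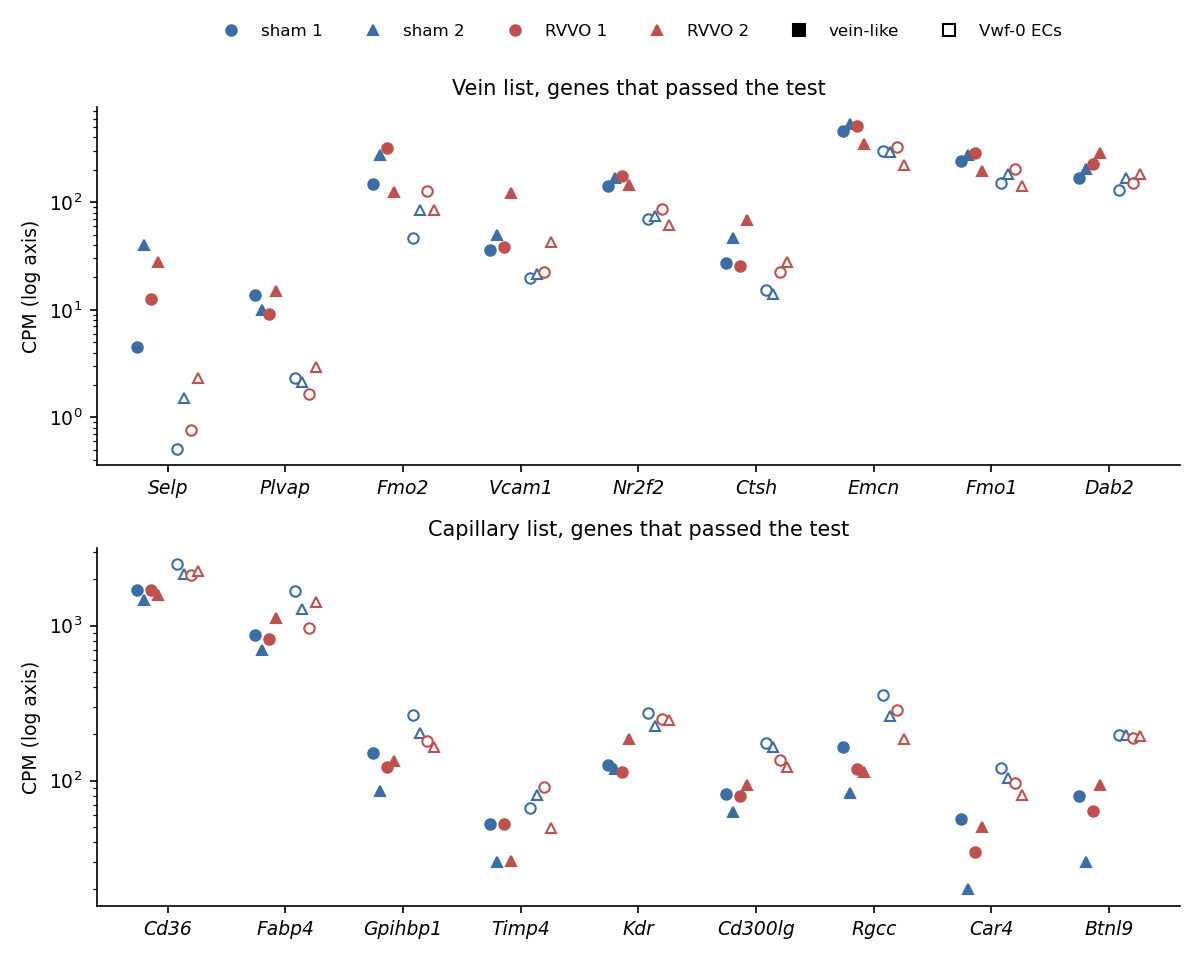
Levels in CPM (log axis) of the 9 vein-list genes that were higher (upper panel) and the 9 capillary-list genes that were lower (lower panel) in vein-like nuclei, 1 point per library, filled for vein-like nuclei and open for Vwf-0 ECs. Nr2f2, Selp and Plvap of the vein-like nuclei lie above all 4 open points, and Btnl9, Car4 and Cd36 lie below them.

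Since Nr2f2 encodes a nuclear receptor, the 250 bases before the start of the vein-list genes that were higher were searched for AGGTCA on both strands, the 6 letters that nuclear receptors of this kind bind in DNA. The RefSeq promoters (GRCm38.p6) held 5 of the 9 genes, and Selp, Fmo2 and Emcn had a match, 3 of 5, while 15.8% of all 27025 genes with a promoter and 14% of all 32851 promoters had one. Among the 10 genes with the largest positive difference from Vwf-0 ECs, 1 of 7 with a promoter had a match, Selp again. The promoters of Selp (chr1:164115014-164115263, plus strand) and Emcn (chr3:137340828-137341077, plus strand) are shown as those of vein markers that, like Nr2f2, were higher than in Vwf-0 ECs. Against endocardial-like nuclei Emcn was lower, while Nr2f2, Selp and Fmo2, whose promoter is not shown, were higher. The match is in capitals, read as TGACCT on this strand. It begins 93 bases before the start in Selp, and Emcn has 2 matches, the first 153 bases before the start.
Selp: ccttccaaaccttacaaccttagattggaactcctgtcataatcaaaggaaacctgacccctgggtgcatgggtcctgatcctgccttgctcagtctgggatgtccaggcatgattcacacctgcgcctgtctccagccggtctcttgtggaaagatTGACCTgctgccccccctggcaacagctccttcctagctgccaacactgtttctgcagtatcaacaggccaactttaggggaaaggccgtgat
Emcn: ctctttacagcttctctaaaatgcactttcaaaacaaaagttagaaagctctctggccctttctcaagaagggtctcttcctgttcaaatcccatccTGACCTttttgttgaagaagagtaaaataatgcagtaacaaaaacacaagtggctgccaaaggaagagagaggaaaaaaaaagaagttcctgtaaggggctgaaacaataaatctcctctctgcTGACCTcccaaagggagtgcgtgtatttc
A match says that the letters are present and nothing about binding.

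Cargo and machinery of Weibel-Palade bodies were among the higher genes. Of 18 tested genes on that list, 5 were higher (Selp, Myrip, Rab27a, Edn1 and Unc13b) and 1 was lower (Igfbp7, -0.55). Myrip, which ties the granules to actin, on chromosome 9 from 120301513 to 120474841, was at 125, 195, 235 and 141 CPM against 9.05, 19.7, 25.6 and 16.6 in Vwf-0 ECs, a log2 fold change of 3.32 ± 0.16 (adjusted p = 3.51e-12). Rab27a, the small GTPase that Myrip binds on the granules, on chromosome 9 from 73044854 to 73097629, was at 104, 235, 206 and 128 CPM against 16.1, 23.4, 30.6 and 17.4, a log2 fold change of 2.91 ± 0.16. For both genes each vein-like library was above each library of the Vwf-0 ECs. Edn1, the vasoconstrictor endothelin stored in the same granules, was at 34.0, 69.4, 41.6 and 32.7 CPM against 14.7, 17.1, 18.6 and 16.9 (1.34 ± 0.24), and Unc13b, a priming factor for exocytosis, differed by 0.90 ± 0.13. Angpt2, Cd63, Plat, Stxbp5 and Rap1a, other cargo and machinery, had log2 fold changes of -0.02, -0.04, -0.17, -0.13 and -0.16 and did not pass.

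The 10 genes with the largest positive log2 fold changes, among called genes with the same direction in all 4 libraries and a mean of 20 CPM or more, were Selp, Plekha7, Myrip, Rab27b, Sema5b, Itga2b, Ptgs1, Rab27a, Pdia5 and Itgb4. Rab27b, a close relative of Rab27a that also serves granule release, was higher by 3.16 ± 0.33 on the log2 scale. Ptgs1, the constitutive cyclooxygenase, was at 79.3, 69.4, 119.5 and 62.8 CPM against 6.92, 11.5, 19.8 and 7.40 (2.91 ± 0.22), and Plekha7, an adherens junction protein, at 65.7, 136, 61.6 and 52.8 CPM against 4.27, 8.96, 8.48 and 8.43 (3.35 ± 0.25). Sema5b, a semaphorin, Pdia5, a disulfide isomerase, and Itgb4, a laminin-binding integrin, differed by 3.16, 2.89 and 2.88. Itga2b, the platelet integrin, is taken up with the platelet genes further on.

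Genes outside that top 10, picked after their values were seen, included some of the most abundant. Kirrel3, an adhesion molecule of the immunoglobulin family, on chromosome 9 from 34485894 to 35036716, was at 659.5, 718, 1076 and 379 CPM against 82.2, 109.8, 137 and 81.5, a log2 fold change of 2.74 ± 0.12 (adjusted p = 9.13e-13). Eln, the elastin gene, was at 1176, 2034, 1340.01 and 1711 CPM against 237, 287, 207 and 267 (2.62 ± 0.10, adjusted p = 2.96e-13), and Rasa4, a GTPase-activating protein for Ras, at 233, 387, 190.1 and 191 CPM against 31.4, 42.9, 25.7 and 35.4 (2.85 ± 0.14). All 3 were higher in each vein-like library than in any library of Vwf-0 ECs. Calcrl, the receptor for adrenomedullin, was higher by 1.89 ± 0.10.

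Some genes for leukocyte capture and for vessel tone were higher as well. Of 15 tested adhesion genes 4 were higher and 0 lower, Selp, Vcam1, Icam1 and the interleukin-1 receptor Il1r1 (1.50 ± 0.12). Icam1 was at 68.0, 86.0, 94.2 and 156 CPM against 30.0, 47.5, 23.5 and 48.8 (1.46 ± 0.19), highest in RVVO 2, and Icam2, Cd34 and Podxl did not pass. Of 14 clotting genes 2 were higher, Entpd1 (1.69 ± 0.10), which breaks down the platelet agonist ADP, and Nos3, the endothelial nitric oxide synthase (1.18 ± 0.13), while Thbd (thrombomodulin), F8 and Tfpi had log2 fold changes of 0.01, 0.41 and -0.10 and did not pass. Among 16 shear-response genes 2 were higher, Nos3 and the calcium channel Trpv4 (1.29), 1 was lower, Kdr, and Klf2 and Klf4 were at -0.07 and 0.11 without passing.

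Capillary genes were lower. Of 14 genes on the capillary list 9 were lower and 0 higher, with a median log2 fold change of -0.82. Btnl9, a butyrophilin-like surface protein, was at 79.3, 29.8, 63.4 and 93.0 CPM against 198, 197, 187 and 195, a log2 fold change of -1.53 ± 0.17 (adjusted p = 3.37e-06). Car4, the membrane carbonic anhydrase of capillaries, was at 56.7, 19.8, 34.4 and 50.3 CPM against 119.8, 103, 96.0 and 80.3 (-1.29 ± 0.20), and Kdr, the main VEGF receptor, at 127, 119, 114 and 186 CPM against 272, 226, 251 and 245 (-0.89 ± 0.14). The vein-like nuclei were lowest in each of these, with sham 2 lowest for Btnl9 and Car4. Rgcc, Cd300lg, Timp4, Gpihbp1, Fabp4 and Cd36 were also lower, with log2 fold changes of -1.17, -0.90, -0.77, -0.71, -0.61 and -0.50. Cd36, the fatty acid transporter, stayed abundant at 1686, 1465, 1695 and 1565 CPM against 2483, 2142, 2111 and 2253.

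Fatty acid uptake, the work of heart capillaries, gave 5 lower and 0 higher of 11 genes, Pparg (-1.09) and Fabp5 (-0.83) with Cd36, Fabp4 and Gpihbp1. Of 15 matrix genes 4 were lower, the basement membrane genes Col4a1 (-0.66), Col4a2 (-0.72) and Col18a1 (-1.28) and Sparc (-0.68). The 10 largest falls were Kctd12b (-1.71), Zfp804b (-1.65), Ssu2 (-1.54), Btnl9, AW112010 (-1.41), Colec11 (-1.37), Efr3b (-1.36), D8Ertd82e (-1.35), Sema7a (-1.35) and Cxcl9 (-1.34), each smaller in size than any of the 10 positive ones. The calls of AW112010 and Cxcl9 were lost with DESeq2 (adjusted p = 0.159 and 0.309), without sham 1 (edgeR adjusted p = 0.347 and 0.559) and without sham 2 (0.207 and 0.156). Those of Colec11, Zfp804b and Kctd12b were lost without sham 2 (edgeR adjusted p = 0.0734, 0.0505 and 0.0693), that of Colec11 also without RVVO 1 or RVVO 2 (0.0871 and 0.124) and that of Zfp804b without RVVO 1 (0.0793). With nuclei thinned to 1000 UMIs Colec11, Zfp804b, Kctd12b, Sema7a and Cxcl9 lost theirs (edgeR adjusted p = 0.398, 0.176, 0.417, 0.0549 and 0.678), and without nuclei holding UMIs of other lineages Efr3b, D8Ertd82e and Sema7a did (0.0727, 0.0970 and 0.142). Without the library block the calls of Zfp804b, Ssu2, AW112010, Colec11, Efr3b and Cxcl9 were lost (edgeR adjusted p = 0.500, 0.0749, 0.425, 0.229, 0.0607 and 0.734).

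Arterial genes did not form 1 block. Of 18 tested, 6 were higher and 5 lower. Efnb2, the partner of Ephb4, was at 65.7, 76.1, 70.6 and 82.9 CPM against 168, 163, 133 and 129.7 in Vwf-0 ECs, lower in every library (-1.01 ± 0.15, adjusted p = 0.000159), and the chemokine Cxcl12 (-0.99), the netrin receptor Unc5b (-0.95), Igfbp3 (-0.97) and Nrp1 (-0.39) were lower with it. Vegfc, a growth factor for lymphatic ECs, was at 224, 384, 355 and 128 CPM against 72.6, 97.1, 124 and 75.7 and higher (1.50 ± 0.14), RVVO 2 being nearest to the other class. The Notch ligand Jag1 (0.85), the kinase Bmx (2.07), Stmn2 (1.34), Fbln2 (0.67) and Mecom (0.50) were higher too. In the BMP and TGF-beta list of 15 the ligand Bmp4 (1.34) and the receptor Bmpr2 (0.48) were higher and Bmp6 (-0.60) was lower. In the VEGF and Tie list of 12 Vegfc was higher and Kdr, Nrp1 and Efnb2 were lower.

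Few genes of the other lists passed. Of 7 endocardial genes, with a median log2 fold change of 0.70, 2 were higher, the adhesion receptor Adgrg6 (1.55) and Hmcn1 (0.70), and 0 were lower. None of 5 lymphatic, 16 cell division and 8 immediate early genes passed, with median log2 fold changes of 0.20, 0.14 and -0.88, and all 8 immediate early genes had a negative value. In the interferon and MHC list of 20 genes, Rsad2 (-1.14) and Bst2 (-0.58) were lower.

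Against the arterial-like nuclei, 797 of 10656 genes passed (7.48%), 314 higher (2.95%) and 483 lower (4.53%) in vein-like nuclei, and without sham 2 the count was 395. This comparison shares the vein-like counts with the first, so the values are given side by side with no measure of overlap. On the vein list 9 of 15 genes were higher and 0 lower, Nr2f2 by 0.77 ± 0.14 and Selp by 1.99 ± 0.49, while Ephb4 differed by 0.31 ± 0.13 (edgeR adjusted p = 0.188). On the arterial list 8 of 17 were lower, led by Sema3g (-2.16), Cxcl12 (-2.13), Efnb2 (-1.52) and Unc5b (-1.51), and 1 was higher, Vegfc (1.02), while Jag1, Bmx and Mecom had log2 fold changes of -0.03, -0.25 and 0.09 and did not pass. The capillary list had 10 of 13 lower here, among them Btnl9 (-2.26).

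The limits given above for the largest changes, the same direction in all libraries and a mean of 20 CPM or more, hold for all 3 class comparisons. Within them the largest rises against arterial-like nuclei were Kirrel3 (3.66 ± 0.15), Rab27b (3.63 ± 0.42), Plekha7 (3.58 ± 0.30), Itga2b and Rasa4 (3.48 ± 0.20). Kirrel3 was at 45.3, 49.2, 65.8 and 52.2 CPM in the arterial-like nuclei. The largest falls were the odorant receptor Olfr78 (-3.46), Prom1 (-2.91), the sialyltransferase St8sia6 (-2.74), Col18a1 (-2.45) and Lmod1, a smooth muscle gene (-2.44). The calls of Olfr78 and St8sia6 were lost with DESeq2 (adjusted p = 0.0948 and 0.0781) and that of Lmod1 without sham 2 (edgeR adjusted p = 0.0561). Of 7 mural cell genes, the markers of pericytes and smooth muscle, 6 were lower in vein-like than in arterial-like nuclei, among them Rgs5 (-1.93). Of 6 macrophage genes 2 were higher, Mrc1 (0.73) and F13a1 (0.85), and of 3 epicardial genes 1 was lower, Wt1 (-0.68). The part of mural, macrophage and epicardial RNA in this comparison was not tested.

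Against the endocardial-like nuclei, which carry Vwf at a like level, 1025 of 10984 genes passed (9.33%), 505 higher (4.60%) and 520 lower (4.73%), and without sham 2 the count was 682. The endocardial list outside the rule gave 5 lower and 0 higher of 7. Cdh11, a cadherin of endocardium and mesenchyme, was at 18.1, 36.4, 12.7 and 93.0 CPM in vein-like nuclei against 757, 787, 682 and 668 in endocardial-like nuclei (-4.28 ± 0.26, adjusted p = 1.89e-09), and Smoc1, a secreted calcium-binding protein, at 0, 9.92, 3.62 and 0 CPM against 134, 139, 135 and 123 (-5.47 ± 0.36). Smoc1 was thus at or near 0 in the members, and Cdh11 reached at most 93.0 CPM, in RVVO 2. Hmcn1 (-2.17), Cytl1 (-1.90) and the transcription factor Foxc1 (-1.57) were lower too.

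Among the 5 largest falls against endocardial-like nuclei were also Ahsg (fetuin, -5.21 ± 0.39), Sall1 (-5.01 ± 0.70), the BMP receptor Bmpr1b (-5.73 ± 0.59) and the potassium channel Kcnb2. No UMI of Kcnb2 was found in any member, which allows up to 1.77 CPM, while the endocardial-like nuclei had 32.0, 48.1, 18.8 and 6.56 CPM. The 5 largest rises were Itga2b, Rasa4 (3.63 ± 0.19), Sema5b (3.61 ± 0.51), Pf4 and Ptprr, a tyrosine phosphatase (2.75 ± 0.33).

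Not every gene that was higher than in Vwf-0 ECs was also higher than in endocardial-like nuclei. Of 15 vein-list genes 6 were higher and 6 lower than in endocardial-like nuclei. Selp (2.0), Fmo1 (1.17), Nrp2 (0.77), Fmo2 (0.61), Nr2f2 (0.47) and Ephb4 (0.45, adjusted p = 0.0241) were higher, and the lower ones included Plvap (-1.74), Ctsh (-1.66), Vcam1 (-1.11), Mgp (-0.49) and Emcn (-0.48). Of the granule genes, Selp, Myrip (0.57), Rab27a (0.91) and Stx3 (0.68) were higher and Unc13b (-0.68) lower, 4 and 1 of 14. Ptgs1 was at 77.3, 104, 106 and 71.7 CPM in endocardial-like nuclei and did not pass (-0.11 ± 0.16, adjusted p = 0.81). Kirrel3 was at 158, 102, 146 and 56.9 CPM there and was higher in vein-like nuclei by 2.61 ± 0.13. Capillary genes were higher in vein-like nuclei, 7 of 13, with Cd36 at 0.62 and Meox2, an EC transcription factor, at 1.32, and 8 of 17 arterial-list genes were higher and 3 lower (Bmx -2.14, Efnb2 -0.93 and Igfbp3 -0.93). Markers of other cell types differed too. Higher were 2 of 7 CM genes (Actc1 and Tnni3), 2 of 2 erythroid genes (Hbb-bs and Hba-a1) and 1 of 7 mural genes (Rgs5). Lower were 2 of 4 epicardial genes (Lrrn4 and Upk3b) and 1 of 6 fibroblast genes (Dcn), and 0 of 6 macrophage genes passed.

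**Figure D2:**
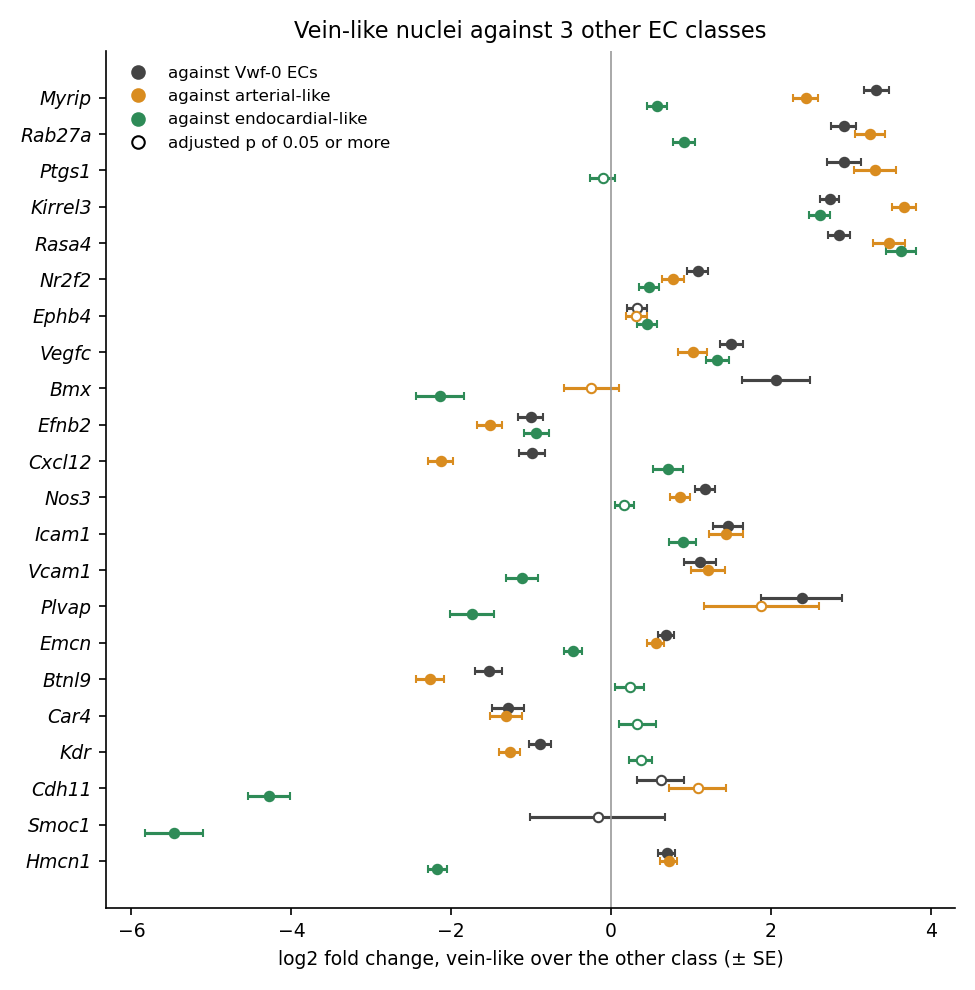
Log2 fold change (± SE) of 22 genes in vein-like nuclei over Vwf-0 ECs, arterial-like and endocardial-like nuclei, from edgeR on counts summed by class and library (4 libraries per class), with open points where the adjusted p was 0.05 or more. The genes were picked after their values were seen, to show the groups described in the text. Kirrel3, Rasa4, Nr2f2 and Vegfc lie to the right of 0 against all 3 classes and Efnb2 to the left, while Cdh11, Smoc1 and Hmcn1 lie far to the left against endocardial-like nuclei alone.

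Detection per nucleus was limited by depth, and a nucleus without a UMI of a gene may still express it. At least 1 UMI over 9 leading genes (the top 10 without Itga2b, picked for their level in this class) was found in 74.7, 77.1, 80.6 and 73.3% of members, against 11.1, 14.7, 24.2 and 19.0% of Vwf-0 ECs and 9.51, 12.9, 18.8 and 14.9% of CM nuclei, which were chosen to hold no UMI of the 4 EC genes of the rule. The share in endocardial-like nuclei was 65.2, 68.7, 79.7 and 70.8%, overlapping that of the members. With every nucleus thinned to 1000 UMIs the shares were 50.6, 58.6, 51.5 and 38.4% in members, 5.28, 8.18, 9.32 and 6.75% in Vwf-0 ECs, 32.9, 41.3, 41.4 and 33.7% in endocardial-like nuclei and 1.93, 3.50, 3.39 and 2.80% in CM nuclei. The Vwf-0 ECs had a median of 2057, 1855, 3073 and 2739 UMIs.

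Single genes were found in fewer members. Kirrel3 was found in 40.7, 39.0, 57.3 and 24.4% of members (7.43, 7.35, 12.9 and 8.83% of Vwf-0 ECs and 5.33, 4.75, 9.02 and 4.14% of CM nuclei), with up to 34, 27, 58 and 23 UMIs in 1 nucleus. The share was lowest in RVVO 2. Nr2f2 was found in 33.0, 32.4, 46.6 and 34.9% of members, 12.7, 10.9, 18.5 and 15.1% of Vwf-0 ECs, 31.3, 32.4, 44.0 and 36.0% of endocardial-like nuclei and 3.17, 2.97, 4.51 and 3.68% of CM nuclei. In lymphatic-like nuclei (at least 2 UMIs of the lymphatic genes) it was found in 52.5, 53.8, 83.3 and 58%, above the members in each library. With nuclei thinned to 1000 UMIs these shares were 32.5, 31.4, 35.9 and 30%, against 17.2, 13.1, 19.4 and 9.30% of members. Ephb4 was found in 41.8, 36.2, 51.5 and 47.7% of members, 28.0, 28.6, 31.5 and 34.1% of Vwf-0 ECs, 42.3, 44.4, 46.5 and 42.0% of endocardial-like nuclei and 5.98, 6.68, 11.9 and 8.44% of CM nuclei. The shares were 43.3, 45.9, 52.7 and 44.1% in arterial-like and 47.5, 44.2, 66.7 and 62% in lymphatic-like nuclei, above the members in most libraries. With nuclei thinned to 1000 UMIs they were 13.7, 16.1, 12.1 and 13.8% and 15, 23.5, 26.9 and 10%, against 18.4, 19.2, 24.3 and 16.3% of members. Selp was found in 2.20, 8.57, 6.80 and 10.5% of members and 0.142, 0.308, 0.182 and 0.661% of Vwf-0 ECs.

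Markers of other cell types were found in most members, as in most Vwf-0 ECs. At least 2 UMIs of markers of other lineages were found in 81.3%, 74.3%, 89.3% and 95.3% of members and in 80.6%, 72.0%, 90.0% and 94.8% of Vwf-0 ECs. These lineages were fibroblast, mural, macrophage, glial, epicardial, lymphoid and platelet, and CM, erythroid and adipocyte genes were not counted. The 7 CM genes, led by Myh6, summed to 16200.3, 15227, 17009 and 15878 CPM in members and 23962, 15799.8, 19775 and 18516 CPM in Vwf-0 ECs, and 2 of 7 were lower in members. The fibroblast list summed to 952, 883, 958 and 1173 CPM in members and 821, 985, 1234 and 1546 in Vwf-0 ECs, with 0 of 7 passing. The mural list summed to 899.8, 665, 627 and 709 CPM and 1386, 976, 1118 and 925 CPM, with 3 of 7 lower, and the macrophage list to 601, 645, 858 and 839 CPM and 339.8, 473, 728 and 812 CPM, with 0 of 6 passing. For the counted lineages, the part of this RNA in the class comparisons was not tested beyond a fit. That fit used the 17, 27, 11 and 4 members with less than 2 UMIs of those lineages. In it 216 of 4676 genes tested passed against Vwf-0 ECs. The fit set no limit on CM RNA, whose part was not tested.

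Platelet genes stood apart. All 5 of Itga2b, Ppbp, Pf4, Gp9 and Gp1bb were higher in vein-like nuclei than in Vwf-0 ECs, Itga2b by 3.10 ± 0.43 and Pf4, platelet factor 4, by 2.16 ± 0.37. Summed, they were at 476, 112, 25.4 and 25.1 CPM in members, most in sham 1, and at 35.0, 13.2, 12.4 and 20.7 CPM in Vwf-0 ECs, with Pf4 the most abundant in sham 1. Just 11 members (8, 2, 1 and 0 by library) with 3 or more platelet UMIs held 235 of the 268 platelet UMIs of the class, up to 125 in 1 nucleus, but 44 of its 1413 Vwf UMIs. The 11 were left out in a further fit, a choice made after the values were seen. The same limit was applied to the other classes, which left 4212, 4215, 1647 and 2113 Vwf-0 ECs. Itga2b and Pf4 are among the 5 genes by which the 11 were picked, so the fall of these genes in that fit follows from the choice and is no test. In that fit Itga2b was at 14.4, 3.46, 3.65 and 10.1 CPM, with a log2 fold change of 0.95 ± 0.53 against Vwf-0 ECs, and was not called in any of the 3 class comparisons. The vein list kept 9 higher and 0 lower, the capillary list 0 and 9, Selp was at 3.98 ± 0.51, and 559 genes passed in all, 468 of them among the 488.

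Vein-like nuclei made up 1.50%, 1.80%, 3.17% and 2.04% of EC nuclei, with 95% Wilson intervals of 1.22% to 1.83%, 1.49% to 2.17%, 2.62% to 3.83% and 1.66% to 2.51%. The question was whether the share differed with RVVO, which cannot be told apart from sex in these libraries, as shown further on. Both RVVO libraries were above both sham libraries, with means of 1.65% ± 0.216 in sham and 2.61% ± 0.797 in RVVO (SD, n = 2), a difference of 0.957 points (exact permutation test, two-sided p = 0.33, the smallest p that 2 against 2 allows). Deeper nuclei reach 2 Vwf UMIs more easily, and at 1000 UMIs per nucleus the shares were 0.793%, 0.889%, 2.13% and 1.17% of the 4415, 4164, 2349 and 2745 nuclei that were that deep and still met the EC limits (difference 0.807 points, exact p = 0.33). At 2000 UMIs they were 1.33%, 1.78%, 2.65% and 1.71%, where RVVO 2 lay between the sham libraries (0.626 points, exact p = 0.667). Of all nuclei that passed the quality limits the members were 0.701%, 0.721%, 1.25% and 0.681%, a difference of 0.254 points with overlapping groups (exact p = 1). With all UMIs the difference was 0.394 points without RVVO 1 and 1.52 points without RVVO 2.

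**Figure D3:**
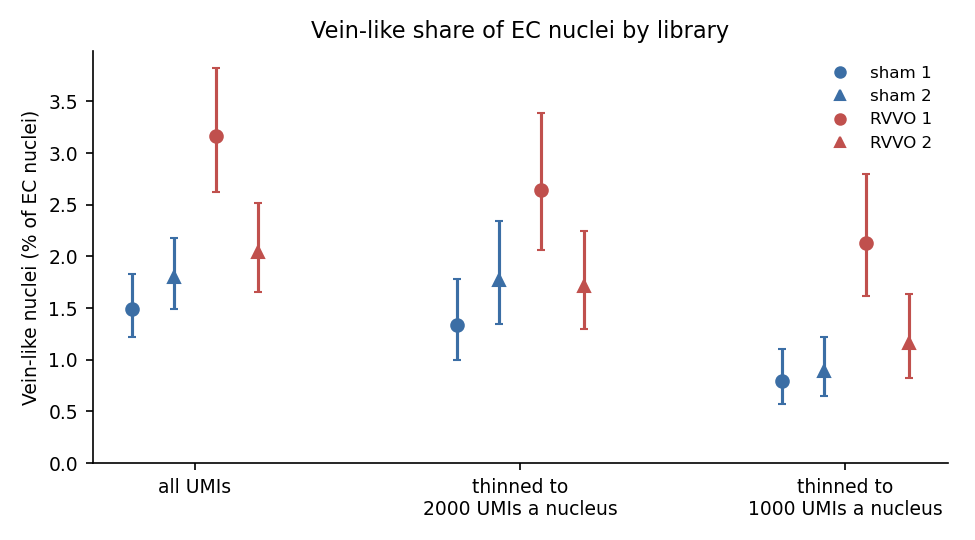
Vein-like nuclei as a percent of EC nuclei in each of the 4 libraries, from all UMIs and after thinning each nucleus to 2000 or 1000 UMIs, with bars for 95% Wilson intervals that cover counting error only. RVVO 1 is highest at every depth (3.17% with all UMIs), and RVVO 2 falls among the sham libraries at 2000 UMIs.

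Within the vein-like nuclei, the test of RVVO against sham called 36 of 6896 genes (0.522%), 12 higher (0.174%) and 24 lower (0.348%) in RVVO, with 494 at an unadjusted edgeR p under 0.05. The count was 144 without sham 1, 37 without sham 2, 61 without RVVO 1 and 113 without RVVO 2. The vein identity genes were not among the calls. Nr2f2 differed by 0.05 ± 0.24 (adjusted p = 0.994), Ephb4 by -0.03 ± 0.23 (0.994) and Vwf, whose floor of 2 UMIs was part of the rule, was at the values given above. Of the vein, capillary, Weibel-Palade, adhesion, clotting, shear and matrix lists no gene passed, and no cell division gene passed the filter on low counts.

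A minority of the interferon genes passed. Of 17 tested genes on the interferon and MHC list 4 were lower in RVVO and 0 higher, with a median log2 fold change of -1.52 against -0.01 over all genes, and 16 of 17 had a negative value. Among the 4, Stat2, a transcription factor that interferon receptors activate, on chromosome 10 from 128270559 to 128292849, was at 339.96, 271, 88.7 and 136 CPM (-1.48 ± 0.26, edgeR adjusted p = 0.0363), and Bst2 (tetherin), which holds virus particles at the cell surface, at 116, 142, 34.4 and 40.2 CPM (-1.79 ± 0.30, 0.0349). Oasl2, of the oligoadenylate synthase family, was at 184, 149, 65.2 and 50.3 CPM (-1.52 ± 0.28, 0.0418). For these 3 genes both RVVO libraries were below both sham libraries. The calls of Stat2, Bst2 and Oasl2 were lost with DESeq2 (adjusted p = 0.0543, 0.254 and 0.325), that of Bst2 also without sham 2 (0.0523) and that of Oasl2 without RVVO 2 (0.0504). All 3 calls were also lost with nuclei thinned to 1000 UMIs (edgeR adjusted p = 0.990, 0.479 and 0.778). The log2 fold change of Stat2 was then -0.50, while those of Bst2 and Oasl2 stayed at -1.95 and -1.38. All 3 were lost as well among members with at least 3 Vwf UMIs (edgeR adjusted p = 0.159, 0.215 and 0.390), and Oasl2 among those with at least 2000 UMIs (0.0602).

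Ifit1 (-2.11, edgeR adjusted p = 0.298), Ifit3 (-2.86), Rsad2 (-1.81), Ifi44 (-1.65) and Tap1 (-1.43) had values of like size and did not pass, and the MHC genes B2m, H2-D1 and H2-K1 were at -0.38, -0.26 and 0.07. Outside the list, Herc6, an interferon-induced ubiquitin ligase, on chromosome 6 from 57581000 to 57664632, was at 558, 632, 103 and 148 CPM (-2.26 ± 0.24, adjusted p = 0.00182), and the guanylate-binding protein Gbp4 at 548, 380.3, 70.6 and 181 CPM (-1.95 ± 0.36). Phf11d was at 107, 109, 16.3 and 20.1 CPM (-2.57 ± 0.35), and Cd274, the checkpoint ligand PD-L1 (-2.10), and Wars, a tRNA synthetase induced by interferon (-2.14), passed as well. The call of Cd274 was lost with DESeq2 (adjusted p = 0.111). Those of Gbp4, Cd274 and Wars were lost with nuclei thinned to 1000 UMIs (edgeR adjusted p = 0.209, 0.308 and 0.237), and those of Gbp4, Cd274, Wars and Phf11d among members with at least 3 Vwf UMIs (0.122, 0.0577, 0.0509 and 0.0509). Gbp4 also lost it among members with at least 2000 UMIs (0.0560), and Herc6 and Gbp4 in the fit on the 17, 27, 11 and 4 members with less than 2 UMIs of other lineages (0.994 for both). Gbp7 (-1.69), Ifi203 (-1.64), Mndal (-1.45), Parp14 (-1.41), Rnf213 (-1.60), Samhd1 (-1.61) and Trim30a (-1.46), other genes known as interferon-induced and picked out after their values were seen, also fell. These genes form no fixed list and were not tested as a group. Of all 36 calls for RVVO, 5 were kept with nuclei thinned to 1000 UMIs and 1 without nuclei holding UMIs of other lineages. Those fits tested 2316 and 614 genes, against 6896 in the main fit, so a call not kept may be of a gene not tested. Both RVVO libraries were below both sham libraries for Herc6, Gbp4 and Phf11d.

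In the Vwf-0 ECs, too, both RVVO libraries were below both sham libraries for Stat2, Herc6 and Gbp4. Stat2 was at 282, 306, 101 and 161 CPM there, Herc6 at 609.7, 515, 161 and 160.5 CPM and Gbp4 at 467, 374, 78.0 and 211 CPM. The test of whether the RVVO effect differed between vein-like nuclei and Vwf-0 ECs, an interaction term in edgeR over both classes, gave -0.22 ± 0.25 for Stat2, -0.39 ± 0.24 for Herc6 and -0.26 ± 0.23 for Gbp4 (adjusted p = 1 for each). A fall particular to the vein-like nuclei was thus not detected.

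The sexes of the groups differed. Xist, the transcript of the inactive X chromosome, was at 1858, 1624, 1.81 and 0 CPM in the members (adjusted p = 1.3e-06), and the Y-linked Uty at 0, 0, 268 and 234 CPM, Ddx3y at 0, 0, 109 and 153, Eif2s3y at 0, 0, 118 and 75.4 and Kdm5d at 0, 0, 74.2 and 55.3 CPM. Tsix, which overlaps Xist on the other strand, was at 279, 238, 0 and 0 CPM, and its reads and those of Xist cannot be told apart without strand. The sham libraries thus held RNA of females and the RVVO libraries RNA of males, and all 6 sex-linked genes passed. Sex and RVVO cannot be told apart in any value of this comparison or in the share of vein-like nuclei.

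Genes of heart muscle were among the 12 that rose. Myh7, the slow myosin heavy chain, was at 15.9, 9.92, 72.4 and 67.8 CPM (2.36 ± 0.44, adjusted p = 0.0434), Mlip, a lamin-interacting protein of muscle, at 134, 89.3, 304 and 352 CPM (1.51 ± 0.25), and Trim55, a sarcomere-associated ligase, rose by 1.73. None of the 7 genes of the fixed CM list passed, and that list summed to 16200.3, 15227, 17009 and 15878 CPM in the members. In CM nuclei Myh7 was at 399, 359, 453 and 379 CPM and Mlip at 1333, 1311, 1465 and 1702 CPM, and the part of CM RNA in these rises was not tested. Fgf14, an intracellular regulator of sodium channels, on chromosome 14 from 123977907 to 124677127, was at 65.7, 72.7, 272 and 206 CPM (1.79 ± 0.27, adjusted p = 0.0188) and at 845, 695, 831 and 669.7 CPM in CM nuclei. Myh7 and Trim55 lost their call with DESeq2 (adjusted p = 0.469 and 0.431), and Myh7, Mlip and Trim55 lost it without sham 2 (0.0823, 0.0938 and 0.112). All 3 also lost it among members with at least 3 Vwf UMIs (edgeR adjusted p = 0.314, 0.194 and 0.122), and Mlip with nuclei thinned to 1000 UMIs (0.763).

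Snx17, a sorting nexin of the endosome, had the largest rise among genes not linked to sex, from 11.3 and 9.92 CPM in sham to 97.8 and 128 CPM in RVVO (3.34 ± 0.41, adjusted p = 0.00516). It was at 18.0, 14.9, 117 and 133 CPM in Vwf-0 ECs and at 9.84, 8.36, 87.2 and 119 CPM in CM nuclei, so the step between the groups was present in each class. Ppm1l, a phosphatase, rose by 1.61 and Fhod3, a formin, by 1.23, and the call of Ppm1l was lost with DESeq2 (adjusted p = 0.290), without sham 2 (edgeR adjusted p = 0.0827) and among members with at least 3 Vwf UMIs (0.0988). The largest values without a call were Ms4a4a (2.35, edgeR adjusted p = 0.264), Dpp4 (2.12) and Nt5e (2.06, 0.0633) above 0 and Itga2b (-3.17, 0.102), Thbs1 (-2.91) and Ifit3 below it.

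The platelet genes also entered this comparison, highest in sham 1. Pf4 was at 184, 62.8, 12.7 and 12.6 CPM (-3.32 ± 0.55, adjusted p = 0.0333), Nrgn (neurogranin, also found in platelets) at 113, 46.3, 5.43 and 10.1 CPM (-3.44 ± 0.59, 0.0349) and Ctla2a, a cysteine protease inhibitor, at 499, 255, 38.0 and 72.9 CPM (-2.83 ± 0.37, 0.00869). Without the 11 members with 3 or more platelet UMIs, Ctla2a was at 57.5, 62.3, 36.5 and 72.9 CPM, with overlapping groups and a log2 fold change of -0.17 ± 0.38 (edgeR adjusted p = 0.985). In that fit 33 genes passed, 12 higher and 21 lower, 32 of them among the 36, and the interferon list still had 4 of 17 lower. Without sham 1, which held 8 of the 11, Pf4 and Nrgn lost their call (adjusted p = 0.0676 and 0.317), as did Pf4 among members with at least 3 Vwf UMIs (0.0509) and Ctla2a with nuclei thinned to 1000 UMIs (0.639).

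The test of the difference between the RVVO effects in vein-like nuclei and in Vwf-0 ECs called 4 of 13474 genes (0.0297%), 3 with a more negative effect in vein-like nuclei, Pf4 and Ctla2a among them (0.0223%), and Fgf14 with a more positive one (0.00742%), with 643 at an unadjusted p under 0.05. Fgf14 was at 135, 82.7, 122 and 146 CPM in Vwf-0 ECs, with overlapping groups, and the difference was 1.59 ± 0.30 (adjusted p = 0.0351). Fgf14 and Pf4 lost the call with nuclei thinned to 1000 UMIs (edgeR adjusted p = 1 and 0.449), and Fgf14 and Ctla2a without nuclei holding UMIs of other lineages (adjusted p = 1 for both). Fgf14 also lost it with DESeq2 (adjusted p = 1), without sham 1 (edgeR adjusted p = 0.301) and without RVVO 1 (0.741), Pf4 lost it with DESeq2 (0.204) and without RVVO 2 (edgeR adjusted p = 0.0770), and Ctla2a, which is not one of the 5 platelet genes, lost it without the 11 platelet-marked members (adjusted p = 1). The count was 20 without sham 1, 100 without sham 2, 6 without RVVO 1 and 11 without RVVO 2.

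**Figure D4:**
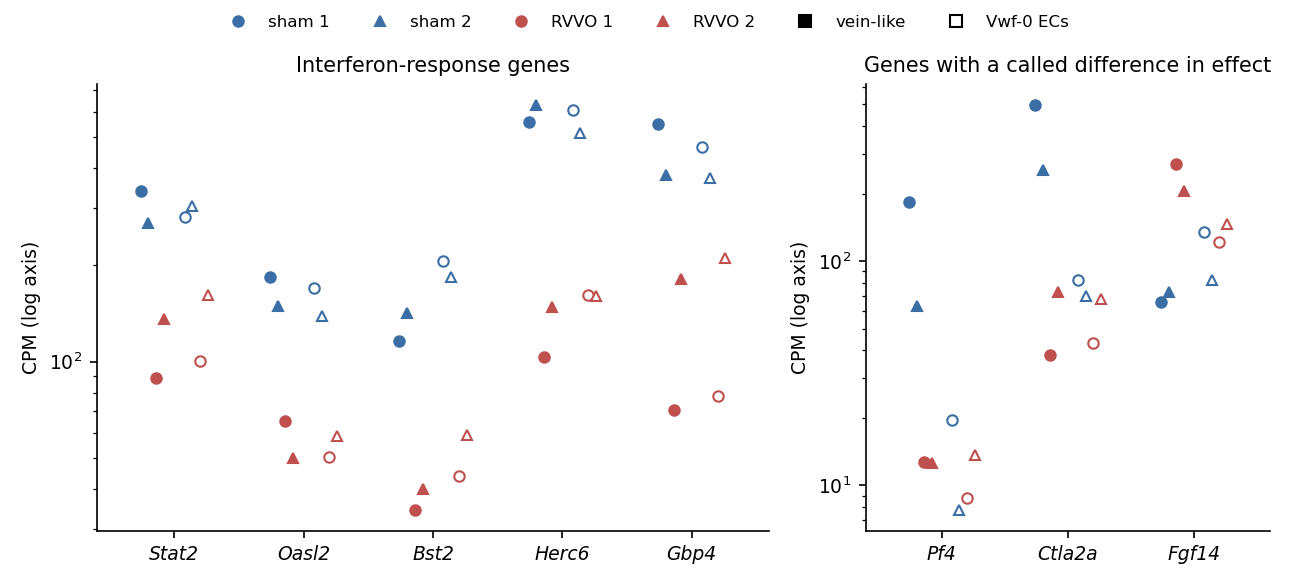
Levels in CPM (log axis) of 5 interferon-induced genes and of Pf4, Ctla2a and Fgf14 in each library, filled for vein-like nuclei and open for Vwf-0 ECs. The interferon-induced genes are lower in both RVVO libraries in both classes, Pf4 and Ctla2a are high in the sham vein-like nuclei alone, and Fgf14 is highest in the RVVO vein-like nuclei.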

How the data were processed

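The deposited matrices hold raw UMI counts per gene and barcode for 4 libraries of right ventricular nuclei, made by the authors with the 10x 3′ v3 chemistry. The file headers name Cell Ranger 5.0.0, the submitters' processing notes name Cell Ranger 3.0.1, STAR and Seurat 3.0.2 with GRCm38 (mm10), and whether introns or strand entered the counts is a point not given in the sources used here. The GENCODE annotation of GRCm38 held 27645 of the 27998 identifiers.

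The members, the gene lists and the tests were chosen with earlier results of these data known. Quality limits were a minimum of 200 genes and a mitochondrial share under 10%, and no doublet caller was run. Arterial-like, endocardial-like and lymphatic-like ECs held at least 2 UMIs of their genes, and CM nuclei held at least 1% Ryr2 and no EC UMI. UMI counts were summed by class and library and tested with edgeR 4.0.16 (quasi-likelihood, TMM, filterByExpr) and limma 3.58.1 in R 4.3.3, with the library as a block between classes and without a block between groups. Python 3.11.15 with numpy 2.4.6, scipy 1.17.1, pandas 2.3.3 and matplotlib 3.10.9 did the rest. The named genes were those of the lists, the called genes with the largest folds (up to 10 or 5 each way, the same direction in all libraries, a mean of 20 CPM or more), and the sex-linked genes, with gene models and clone names left out. For RVVO, up to 5 genes each way without a call, within the limits given with them, could also be named. Some genes that entered the fits and counts are not reported here. Genes named outside this rule are said to have been picked after their values were seen.

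Alternatives were DESeq2 1.42.0, RLE normalization, no filter on low counts, nuclei of at least 2000 UMIs, thinning to 1000 UMIs, at least 3 Vwf UMIs, nuclei with less than 2 UMIs of other lineages, each library left out, the block, and, chosen after seeing the data, leaving out nuclei with 3 or more platelet UMIs. The limit on other lineages did not count CM, erythroid or adipocyte genes. Limits on depth, other lineages and platelet UMIs were applied to all classes. On simulated counts with 200 changed genes, 84% of genes changed by 2 on the log2 scale were recovered in the comparison with Vwf-0 ECs among 13484 genes, 93% with arterial-like among 10667 and 87% with endocardial-like nuclei among 10995, 83% for RVVO in vein-like nuclei among 6903 and 55% for the difference in effects among 13484. For a change of 1 on the log2 scale these were 55%, 54%, 70%, 32% and 13%. Wilson intervals and the limits set by 0 counts (3 counts) cover counting error only.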

Additional observations from a re-analysis of the deposited data

Results flagged for a closer look

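For 4 genes the RVVO effect differed between vein-like nuclei and Vwf-0 ECs by edgeR's interaction test, 0.0297% of the 13474 genes tested, and 3 of them are described. Pf4 differed by -2.87 ± 0.49 on the log2 scale (adjusted p = 0.00985), at 184, 62.8, 12.7 and 12.6 CPM in vein-like nuclei and 19.6, 7.74, 8.78 and 13.7 CPM in Vwf-0 ECs, and did not pass with DESeq2 (adjusted p = 0.204), without RVVO 2 (edgeR adjusted p = 0.0770) or with nuclei thinned to 1000 UMIs (0.449). Ctla2a differed by -2.25 ± 0.29 (edgeR adjusted p = 0.000132), at 499, 255, 38.0 and 72.9 CPM against 82.1, 69.7, 43.3 and 68.0 CPM. Without the 11 members with 3 or more platelet UMIs, 8 of which were in sham 1, the difference for Ctla2a was 0.34 (edgeR adjusted p = 1). That for Pf4 was -0.22, which follows from the choice, since Pf4 was among the genes by which these members were picked.

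Fgf14 differed by 1.59 ± 0.30 (edgeR adjusted p = 0.0351), and without the platelet-marked members by 1.56 (0.0257). Among vein-like nuclei both RVVO libraries were above both sham libraries. It did not pass with DESeq2 (adjusted p = 1), with nuclei thinned to 1000 UMIs (edgeR adjusted p = 1), without sham 1 (0.301), without RVVO 1 (0.741) or without nuclei holding UMIs of other lineages (1). Sex differed between the groups in the same way as RVVO, and the 2 cannot be told apart.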

How the results depend on the processing

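The direction of the share held in every alternative run. The RVVO minus sham difference of the share was 0.254 points of all nuclei that passed the quality limits, and 0.394 to 1.52 points with each library left out. The 488 genes called against Vwf-0 ECs became 767 without the filter on low counts (299 higher, 468 lower), 756 with at least 3 Vwf UMIs (314 and 442), 216 without nuclei holding UMIs of other lineages, 143 without the library block (120 and 23) and 191 to 495 with a library left out. DESeq2 called 369, 366 of them among the 488, and its median log2 fold change over all genes was 0.11 against -0.01. Against arterial-like nuclei the 797 became 440 with DESeq2, 430 after thinning to 1000 UMIs, 70 without nuclei holding UMIs of other lineages and 395 to 741 with a library left out. Against endocardial-like nuclei the 1025 became 575 with DESeq2, 534 with at least 3 Vwf UMIs, 233 without nuclei holding UMIs of other lineages and 682 to 901 with a library left out. The 36 genes called for RVVO became 133 without the filter, 5 after thinning, 16 with at least 3 Vwf UMIs, 1 without nuclei holding UMIs of other lineages and 37 to 144 with a library left out. DESeq2 called 26, all among the 36. The 4 differences in effect became 1 with DESeq2, 18 without the filter, 7 with at least 2000 UMIs, 2 after thinning, 9 with at least 3 Vwf UMIs, 0 without nuclei holding UMIs of other lineages (edgeR, 186 at an unadjusted p under 0.05) and 6 to 100 with a library left out. The limit on other lineages left 17, 27, 11 and 4 members, and fewer genes were tested. There 4676 were tested against Vwf-0 ECs, 867 against arterial-like and 2537 against endocardial-like nuclei, and 614 for RVVO. The main fits tested 13474, 10656, 10984 and 6896. After thinning, 4472 were tested against arterial-like nuclei and 2316 for RVVO. A lower count in these fits need not be a lower share of the genes tested. The cause of the changes was not tested. Leaving out 1 library of a group of 2 assumes that the lone library varies like the others.

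In 4 cases a value changed sign, each without a call under that alternative. Against Vwf-0 ECs this was Tmem252, at 0.23 without sham 1 and down to -6.58 without RVVO 1, and among the differences in effect Fgf14 (-7.67) and Ctla2a (0.18) without nuclei holding UMIs of other lineages and Ctla2a (0.34) without platelet-marked nuclei. Of the named genes, those against arterial-like and endocardial-like nuclei kept direction and call in 102 and 107 of the values run, with 4 and 2 calls lost. Against Vwf-0 ECs 402 were kept, 49 calls were lost and 3 gained, and for RVVO 226 were kept and 40 calls lost.

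With the replicate number as a block, 95 genes were called for RVVO, all 36 among them. Libraries of the same number had a correlation of 0.0618 between their deviations from the group means, and the numbers are labels without a stated link.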
